A study of Chlorocebus sabaeus with 45 samples.

Results

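The 10 genes described here encode the subunits of the transcription factor NF-kB and a set of proteins that hold it in check. They are the 5 subunit genes REL, RELA, RELB, NFKB1 and NFKB2, the 3 cytoplasmic inhibitor genes NFKBIA, NFKBIB and NFKBIE, the nuclear cofactor gene BCL3, and TNFAIP3, which encodes an enzyme that switches the pathway off. They were chosen by gene symbol from the 33994 gene rows of each deposited table, and all 10 were among the 18753 genes expressed highly enough to be tested. Whole-blood RNA came from 15 juvenile male vervet monkeys (Chlorocebus sabaeus), an Old World monkey, of the wild-born population of St. Kitts. Each animal gave 1 library on day 0, day 3 and day 14, so there were 45 libraries. On day 0 the animals were trapped and bled in the field under ketamine and xylazine, which served as the baseline. On day 3 and day 14 they were bled in individual housing, after relocation and social isolation, under dexmedetomidine and midazolam. No animals stayed in the field or in a group as a control in parallel. Place, sedation and elapsed time therefore cannot be told apart in any comparison with day 0. RNA quality moved with the day as well: the study's RNA integrity numbers tended to be higher on day 14 than on day 0 and day 3.

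NF-kB is a family of dimers built from subunits that share a DNA-binding domain. In resting blood cells most dimers are held in the cytoplasm by inhibitor proteins, and signals from receptors for microbes, cytokines or antigen activate the IkB kinase (IKK) complex, which marks the inhibitors for destruction and lets the dimers enter the nucleus. Several of the induced genes, among them NFKBIA and TNFAIP3, encode inhibitors of the same pathway, and the messages of some subunits are themselves induced. Transcript levels do not measure how much of the protein is in the nucleus.

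The libraries held between 13216275 and 31469332 fragments on genes, and the 10 genes were covered by between 36 (BCL3) and 6459 (NFKBIA) fragments per library. Levels are given as FPKM (fragments per gene length and library size) scaled between libraries with TMM (trimmed mean of M values), and log2 fold changes, with their standard errors (SE) and adjusted p-values from limma, are on the scale of log2(scaled FPKM + 0.1). Scaling matters on day 14: over all tested genes the median change on day 14 vs. day 0 was −0.02 with TMM and −0.36 without it, and on day 14 vs. day 3 it was −0.02 and −0.35. On day 3 vs. day 0 both were near 0 (0.01 and −0.03). Markers of every blood cell type examined were present, and none was at 0 in all libraries. The day 0 libraries of animals 7, 11 and 15 stood apart. Their summed level of 14 neutrophil markers lay between 30188 and 43104 FPKM, whereas the highest of the other 12 animals reached 10892 FPKM. Calls of the 10 genes that changed without these animals are given with and without them.

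In order of level, which FPKM allows because it is per gene length, NFKBIA was the most abundant of the 10 transcripts on each day. On day 0 its mean was 63.6 ± 31.3 FPKM (SD, n = 15), followed by NFKB1 at 27.3 ± 3.74 and REL at 17.7 ± 3.39. NFKBIA was above NFKB1, and NFKB1 above REL, in 15 of 15 animals. The next 4 genes could not be ordered beyond their spread: TNFAIP3 (10.6 ± 3.14) was above NFKB2 (10.5 ± 3.32) in 8 of 15 animals, NFKB2 was above NFKBIE (9.23 ± 2.88) in 8, and NFKBIE was above BCL3 (8.90 ± 8.72) in 10. BCL3 was in turn above RELA in only 6. RELA (6.09 ± 1.53), NFKBIB (5.05 ± 0.925) and RELB (3.99 ± 0.949) had the lowest means. Over the 12 animals other than 7, 11 and 15, the day 0 mean was 49.8 ± 13.6 FPKM (SD, n = 12) for NFKBIA, and BCL3 (5.14 ± 3.76) had a lower mean than RELA (5.61 ± 1.13). On day 14 the first 3 places were held by the same genes in 15 of 15 animals for each neighbouring pair, at 40.6 ± 6.47 FPKM for NFKBIA, 21.1 ± 3.19 for NFKB1 and 10.9 ± 1.04 for REL. BCL3 had the lowest mean on that day (2.32 ± 1.01), below RELA in 15 of 15 animals, and RELB and RELA were not ordered (RELB higher in 6 of 15 animals).

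**Figure D1:**
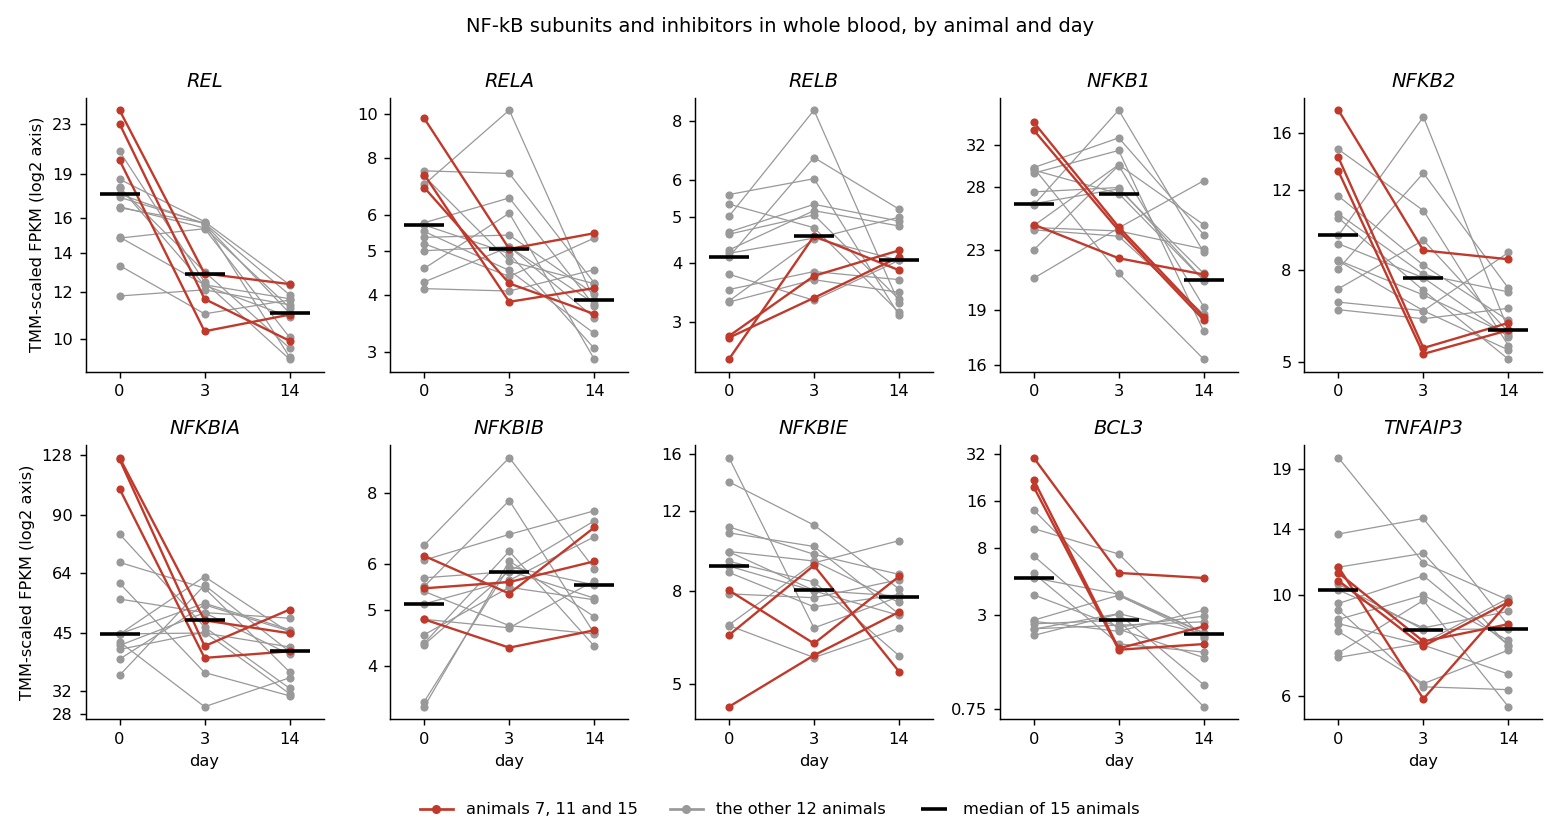
TMM-scaled FPKM (log2 axis) of each of the 10 genes on day 0, 3 and 14, with 1 line per animal and the median of 15 animals as a black bar. Animals 7, 11 and 15 (red) had the 3 highest NFKBIA and BCL3 values and the 3 lowest RELB values on day 0, and REL was lower on day 14 than on day 0 in 15 of 15 animals.

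On day 3 vs. day 0, REL and BCL3 were down-regulated and none of the 10 genes was up-regulated at an adjusted p-value under 0.05. Neither was called without animals 7, 11 and 15, where 6.71% of all tested genes were called. Without any one of animals 2, 4, 7, 11 and 13, 1 of the 2 was called, beside 7.67% to 11.2% of all tested genes. Over all 15 animals, these 2 of 10 genes compare with 12.5% of all tested genes called in either direction, 6.35% called down and 6.12% called up. The median log2 fold change of the 10 genes was −0.19. Without adjustment, 3 genes were lower (REL, BCL3 and NFKB2) and 2 higher (RELB and NFKBIB) at p under 0.05 in limma, beside 4881 of the 18753 tested genes in either direction.

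On day 14 vs. day 0, 7 of the 10 genes were down-regulated: REL, RELA, NFKB1 and NFKB2 among the subunits, and NFKBIA, BCL3 and TNFAIP3 among the inhibitors and cofactors. In this comparison 36.0% of all tested genes were called, with 17.3% of the tested genes down and 18.8% up. RELB (0.03), NFKBIB (0.16) and NFKBIE (−0.22) did not pass, and the median of the 10 genes was −0.45. Without TMM the values of RELB (−0.38) and NFKBIB (−0.26) were negative and still not called, whereas NFKBIE (−0.64, adjusted p = 0.00811) was called. The count without TMM was then 8 of 10, against 41.6% of all tested genes called down.

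On day 14 vs. day 3, which shares housing and sedation, REL, RELA and NFKB1 were down-regulated, that is 3 of 10 genes against 13.6% of all tested genes in either direction, 5.02% down and 8.54% up. The fold changes of all 10 genes were negative in this comparison, with a median of −0.27. Without TMM 9 of the 10 were called, against 35.3% of all tested genes called down. With a covariate for RNA integrity (the RNA integrity number of each sample) only NFKB1 kept its call (adjusted p = 0.00859), while REL was at −0.27 (adjusted p = 0.0505) and RELA at −0.37 (adjusted p = 0.0594), beside 6.24% of all tested genes called and 1.38% called down. The 3 comparisons share libraries, so their counts are not independent of each other.

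**Figure D2:**
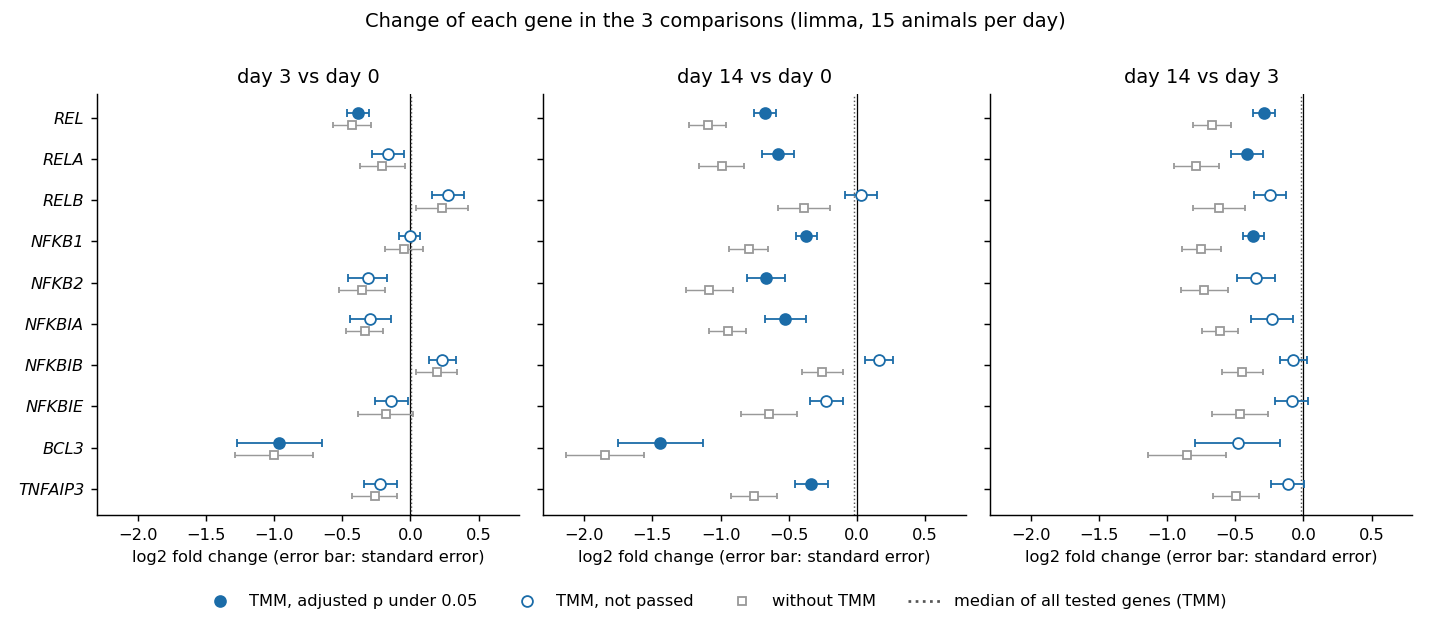
Log2 fold change of each gene with its standard error in the 3 comparisons, with TMM (circles, filled where the adjusted p-value was under 0.05) and without TMM (grey squares); the dotted line is the median of all tested genes with TMM. Filled circles number 2, 7 and 3 from left to right and all lie below 0, and the squares lie further to the left on day 14.

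Among the subunits, REL (c-Rel, which carries a transactivation domain and is found mainly in blood cells) was lower in every animal on day 14 than on day 0. It ranged from 11.8 to 24.3 FPKM on day 0 (median 17.6), from 10.3 to 15.8 on day 3 (median 12.9) and from 9.26 to 12.4 on day 14 (median 11.1). The day 14 values lay almost wholly below the day 0 values: 12 of 15 animals were on day 14 below the lowest day 0 value, and 14 of 15 day 0 values were above the highest day 14 value. REL fell on day 3 (log2 fold change −0.38, SE 0.08, adjusted p = 0.00174, lower in 13 of 15 animals, and −0.24 with adjusted p = 0.0578 without animals 7, 11 and 15), on day 14 vs. day 0 (−0.67, SE 0.08, adjusted p = 3.10e-07, lower in 15 animals) and between day 3 and day 14 (−0.29, SE 0.08, adjusted p = 0.0179, lower in 13). The change to day 14 corresponds to a level 37.3% lower and ranged over the animals from −1.21 in animal 11 to −0.05 in animal 6. The fall between day 3 and day 14 had an adjusted p-value of 0.0512 without animal 9.

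RELA encodes p65, the transactivating subunit of the most widespread NF-kB dimer. Its level ranged from 4.13 to 9.79 FPKM on day 0 (median 5.70), from 3.86 to 10.2 on day 3 (median 5.05) and from 2.89 to 5.47 on day 14 (median 3.89). All 15 values of day 14 were below the median of day 0, and 9 of them below its lowest value. RELA fell on day 14 vs. day 0 (−0.58, SE 0.12, adjusted p = 1.67e-04, lower in 13 of 15 animals) and vs. day 3 (−0.41, SE 0.12, adjusted p = 0.0204, lower in 11). Its log2 fold change on day 3 was −0.17 (SE 0.12, adjusted p = 0.395), with 9 animals lower and 6 higher. The call on day 14 vs. day 3 was lost without animal 8 (adjusted p = 0.0623) and without animal 9 (0.0522).

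RELB, the subunit of the non-canonical branch of the pathway, was the only subunit gene without a called change in limma on TMM-scaled values. It ranged from 2.50 to 5.58 FPKM on day 0 (median 4.12), from 3.34 to 8.43 on day 3 (median 4.56) and from 3.11 to 5.20 on day 14 (median 4.05). The ranges overlapped broadly on the 3 days. On day 3 it was higher in 13 of 15 animals, with a log2 fold change of 0.27 (SE 0.12) that did not pass in limma (adjusted p = 0.127) and passed in the exact sign-flip test within animals (adjusted p = 0.0209). The change was 0.22 (adjusted p = 0.314) without animals 7, 11 and 15, and without their day 0 libraries it was 0.15 (adjusted p = 0.488). On day 14 its log2 fold change vs. day 0 was 0.03 (SE 0.12, adjusted p = 0.866, higher in 10 animals), and −0.38 without TMM. From day 3 to day 14 it was −0.24 (SE 0.12, adjusted p = 0.155, lower in 11 animals), and −0.62 without TMM (adjusted p = 0.0118). The mean ratio of RELB to RELA was 0.698 ± 0.233 (SD, n = 15) in the day 0 libraries, 0.914 ± 0.196 in those of day 3 and 1.04 ± 0.276 in those of day 14. This ratio does not depend on the scaling, and it was higher than on day 0 in 12 of 15 animals on day 3 and in 13 on day 14. In the 12 animals other than 7, 11 and 15 its mean was 0.786 ± 0.161 on day 0, 0.920 ± 0.217 on day 3 and 1.06 ± 0.293 on day 14.

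NFKB1 and NFKB2 encode the precursors that are processed to the DNA-binding subunits p50 and p52, which lack a transactivation domain. NFKB1 ranged from 21.0 to 34.3 FPKM on day 0 (median 26.6), from 21.3 to 35.7 on day 3 (median 27.4) and from 16.3 to 28.6 on day 14 (median 20.9). Days 0 and 3 covered nearly the same range, and 14 of the 15 day 14 values were below both medians. NFKB1 fell vs. day 0 (−0.37, SE 0.08, adjusted p = 2.39e-04, lower in 13 of 15 animals) and vs. day 3 (−0.37, SE 0.08, adjusted p = 0.00299, lower in 14 animals). The early change from day 0 to day 3 was −0.00 (SE 0.08, adjusted p = 0.982), with 7 animals lower and 8 higher. Of the 10 genes it had the early change nearest to 0 and, from day 3 to day 14, the smallest adjusted p-value. On day 14 NFKB1 was higher than on day 0 in animals 6 and 9, and animal 6 was higher than on day 0 by 0.44 and than on day 3 by 0.21 on the log2 scale.

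NFKB2 ranged from 6.54 to 18.0 FPKM on day 0 (median 9.53), from 5.22 to 17.4 on day 3 (median 7.69) and from 5.08 to 8.74 on day 14 (median 5.89). The upper ends of days 0 and 3 were alike, and day 14 had no value above 8.74. NFKB2 fell on day 14 vs. day 0 (−0.66, SE 0.14, adjusted p = 2.39e-04, lower in 13 of 15 animals). On day 3 its log2 fold change was −0.31 (SE 0.14, adjusted p = 0.138, lower in 12 animals), and on day 14 vs. day 3 it was −0.35 (SE 0.14, adjusted p = 0.0812, lower in 11). Animal 8 had the highest day 3 value (17.4 FPKM), and without it the change on day 3 was −0.40 with an adjusted p-value of 0.0468. Without animals 7, 11 and 15 the day 3 change was −0.08 (adjusted p = 0.80), and without their day 0 libraries −0.17 (adjusted p = 0.498). The same library of animal 8 also held the highest day 3 values of REL, RELA, RELB, NFKB1, BCL3 and TNFAIP3. By animal number and day, its RNA sample had the lowest RNA integrity number in the study's list. The part of RNA quality in these high values was not tested.

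The makeup of the subunit pool was expressed as shares of the 5 transcripts' summed FPKM, which are free of the scaling. NFKB1 took 41.9% ± 4.06 (SD, n = 15) of the sum on day 0, 46.1% ± 3.37 on day 3 and 45.4% ± 3.31 on day 14. REL took 26.9% ± 1.98, 22.8% ± 2.01 and 23.7% ± 2.54, and was below its day 0 share in 13 and 12 of 15 animals. RELB took 6.22% ± 1.61, 8.11% ± 1.20 and 8.65% ± 1.16, and was above its day 0 share in 13 and 12 animals. The shares of NFKB2 (15.7% ± 2.92, 13.9% ± 2.71 and 13.7% ± 1.70) and RELA (9.24% ± 1.41, 9.06% ± 1.28 and 8.60% ± 1.21) differed between days by less than their day 0 SD. In the 12 animals other than 7, 11 and 15 the shares of NFKB1 were 42.7% ± 3.64, 45.7% ± 3.30 and 46.1% ± 2.78 on the 3 days. Those of REL were 26.5% ± 1.56, 22.7% ± 2.15 and 23.6% ± 2.70, and those of RELB 6.92% ± 0.782, 8.20% ± 1.31 and 8.58% ± 1.25. These shares are a description with no test.

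**Figure D3:**
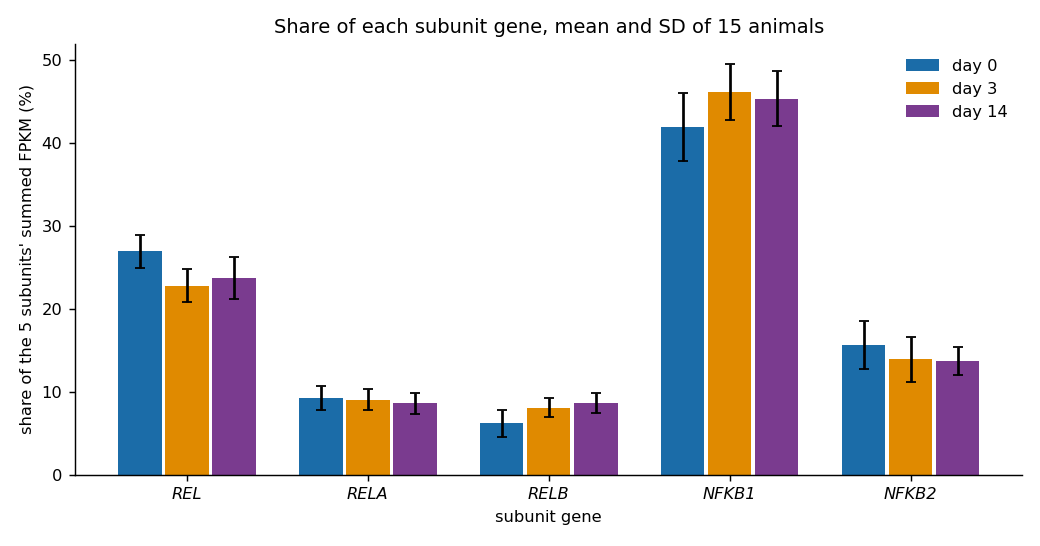
Share of each subunit gene in the summed FPKM of the 5 subunit genes, in percent, as mean and SD of 15 animals on each day. REL is lower and RELB and NFKB1 are higher on days 3 and 14 than on day 0, while the order of the 5 genes by mean share is the same on day 0 and day 3.

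Among the inhibitors, NFKBIA encodes IkBα, which binds dimers that contain p65 or c-Rel and is resynthesised after each activation. On day 0 it ranged from 35.1 to 126 FPKM (median 44.8), on day 3 from 29.2 to 62.7 (median 48.5) and on day 14 from 31.1 to 51.7 (median 40.4). The 3 highest day 0 values, between 105 and 126 FPKM, belonged to animals 7, 11 and 15, and the other 12 animals lay between 35.1 and 80.6. NFKBIA fell on day 14 vs. day 0 (−0.52, SE 0.15, adjusted p = 0.00549, lower in 11 of 15 animals). Without the 3 animals the value was −0.31 (adjusted p = 0.0547), and with the RNA integrity covariate it was −0.47 (adjusted p = 0.0541), so that the call was lost in both. On day 3 the log2 fold change was −0.29 (SE 0.15, adjusted p = 0.207, lower in 8 animals) and became −0.00 without the 3 animals. From day 3 to day 14 it was −0.23, not called in limma and called in the exact sign-flip test within animals (adjusted p = 0.0498).

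NFKBIB and NFKBIE encode IkBβ and IkBε, inhibitors that are replaced more slowly. NFKBIB ranged from 3.39 to 6.49 FPKM on day 0 (median 5.12), from 4.30 to 9.20 on day 3 (median 5.83) and from 4.33 to 7.44 on day 14 (median 5.53). The groups overlapped over most of their range. Its log2 fold change was 0.23 on day 3 (SE 0.10, adjusted p = 0.119, higher in 11 of 15 animals) and 0.16 on day 14 (SE 0.10, adjusted p = 0.210, higher in 10), or −0.26 without TMM. Relative to NFKBIA, which needs no scaling, it stood at ratios of 0.0929 ± 0.0359 (SD, n = 15), 0.129 ± 0.0363 and 0.142 ± 0.0340 on the 3 days, above day 0 in 11 and then 13 animals. In the 12 animals other than 7, 11 and 15 the ratios were 0.105 ± 0.030, 0.131 ± 0.040 and 0.145 ± 0.036. NFKBIE ranged from 4.47 to 15.7 FPKM on day 0 (median 9.08), from 5.73 to 11.2 on day 3 (median 8.03) and from 5.34 to 10.3 on day 14 (median 7.79). Its extremes were on day 0, both high and low. The log2 fold change of NFKBIE was −0.14 on day 3 (adjusted p = 0.516) and −0.22 on day 14 (adjusted p = 0.148, lower in 11 animals). Animal 7 had the lowest day 0 value, and without it the day 14 change was −0.29 (adjusted p = 0.0454). Without animals 7, 11 and 15 it was −0.32 (adjusted p = 0.0325). It was also called with the RNA integrity covariate (−0.46, adjusted p = 0.00846) and with that covariate and the animal as a replicate block (−0.37, adjusted p = 0.0428).

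BCL3, a nuclear member of the IkB family that joins dimers of p50 or p52 on DNA, had the largest fold changes of the 10 genes and the widest spread. It ranged from 2.22 to 30.2 FPKM on day 0 (median 5.17), from 1.79 to 7.33 on day 3 (median 2.77) and from 0.776 to 5.15 on day 14 (median 2.27). On day 0 animals 7, 11 and 15 lay between 19.7 and 30.2 FPKM and the other 12 between 2.22 and 14.0, with a median of 3.40. BCL3 fell on day 14 vs. day 0 (−1.44, SE 0.31, adjusted p = 3.22e-04, lower in 13 of 15 animals), and without the 3 animals it fell by 1.07 on the log2 scale (adjusted p = 0.00220). On day 3 it was called at −0.96 (SE 0.31, adjusted p = 0.0347, lower in 10 animals). That call was lost without the 3 animals (−0.42, adjusted p = 0.361), without any one of animals 2, 4, 7, 11 and 13 (adjusted p between 0.0624 and 0.112), and with the RNA integrity covariate (−0.92, adjusted p = 0.0720). Further losses of the call were in the sign-flip test within animals (adjusted p = 0.0620), in limma without the filter (adjusted p = 0.0602) and without the day 0 libraries of the 3 animals (−0.47, adjusted p = 0.269). The call was kept with the replicate block (adjusted p = 0.0114) and with the covariate and the block together (−0.97, adjusted p = 0.0251).

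TNFAIP3 encodes A20, which removes and attaches ubiquitin chains on signalling proteins upstream of IKK. It ranged from 7.29 to 20.1 FPKM on day 0 (median 10.3), from 5.91 to 14.8 on day 3 (median 8.40) and from 5.68 to 9.85 on day 14 (median 8.43). All 15 values of day 14 were below the day 0 median, and the highest day 0 value was that of animal 2. TNFAIP3 fell on day 14 vs. day 0 (−0.34, SE 0.12, adjusted p = 0.0259, lower in 14 of 15 animals). The adjusted p-value was 0.192 with the RNA integrity covariate and 0.0518 without animals 7, 11 and 15, with a log2 fold change of −0.35. On day 3 it was −0.22 (SE 0.12, adjusted p = 0.244, lower in 9 animals).

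The spread between animals differed by day as well as the level. The SD of the log2 values went from 1.29 on day 0 to 0.57 on day 3 and 0.61 on day 14 for BCL3, and from 0.62 to 0.30 and 0.23 for NFKBIA. For REL it was 0.28, 0.21 and 0.14. For NFKB1, by contrast, it was 0.20, 0.21 and 0.21. Over all tested genes the median SD was 0.43, 0.41 and 0.40. These SDs were not tested against each other, and those of day 0 include the libraries of animals 7, 11 and 15. Over the other 12 animals the SDs on days 0, 3 and 14 were 0.88, 0.50 and 0.56 for BCL3 and 0.36, 0.32 and 0.23 for NFKBIA. For REL they were 0.22, 0.19 and 0.14, and for NFKB1 0.16, 0.21 and 0.22.

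Several markers of blood cell types differed between days as well. Their counts are read beside the shares of all tested genes, 12.5% on day 3 and 36.0% on day 14 vs. day 0, of which 6.12% and 18.8% were up and 6.35% and 17.3% down. The summed neutrophil markers (14 genes, of which 12 were called down and none up on day 14 vs. day 0) ranged from 1311 to 43104 FPKM on day 0 (median 3688), from 556 to 6901 on day 3 (median 2550) and from 540.1 to 4336 on day 14 (median 2217). On day 3 vs. day 0, 7 of the 14 were called down. The red cell and reticulocyte markers (8 of 8 called up on day 14) ranged from 389 to 20666 FPKM on day 0 and from 6658 to 60155 on day 14, and were higher in 14 of 15 animals. The natural killer (NK) cell markers, 4 of 6 called up on day 14, ranged from 70.6 to 196 and from 132 to 495 FPKM. The neutrophil sum was lower on day 14 than on day 0 in 10 of 15 animals and higher in 5, whereas the NK cell sum was higher in 14. Of the T cell markers 3 of 10 were called up on day 14, and of the B cell markers 1 of 8 was called down vs. day 0 and 4 vs. day 3 (5.02% down over all tested genes). Of the 8 monocyte markers 3 were called up on day 3, and 1 up and 2 down on day 14, and of the 6 platelet markers measured 6 were called up on day 3 and 2 on day 14. Some of these marker counts depended on animals 7, 11 and 15. Without them, 2 neutrophil markers were called down on day 3 and 8 on day 14 (all tested genes 2.91% and 13.7% down, each vs. day 0). On day 14, 6 of 8 B cell markers were then called down, 5 of 6 NK cell markers and 8 of 8 red cell markers were called up, and the T cell markers had 1 call up and 1 down. Of all tested genes 15.6% were then called up and 13.7% down. In these bulk samples fewer cells of a type and less RNA per cell cannot be told apart. Over all 15 animals, the B cell share called down on day 14 vs. day 0 was below that of all tested genes, and the monocyte share called in either direction was near it. Without animals 7, 11 and 15 the B cell share called down was above that of all tested genes (6 of 8 beside 13.7%). The part of these cell types in the changes of the 10 genes was not tested.

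Within day 0, the genes divided by their level in the 3 libraries with high neutrophil markers. NFKBIA and BCL3 did not overlap between these 3 libraries and the other 12 and were higher in the 3. RELB did not overlap either, but was lower in the 3 (2.50 to 2.80 FPKM against 3.31 to 5.58). These 3 of 10 genes compare with 13.4% of all tested genes without overlap, 8.07% higher in the 3 and 5.36% lower. RELA (6.90 to 9.79 FPKM in the 3 against 4.13 to 7.51), NFKB2 (13.2 to 18.0 against 6.54 to 14.8) and NFKB1 (24.9 to 34.3 against 21.0 to 29.8) reached above the other 12 and overlapped with them. NFKBIE was 4.47 to 8.04 FPKM in the 3 and 6.73 to 15.7 in the others, and REL was 20.03 to 24.3 against 11.8 to 20.7. NFKBIB (4.82 to 6.21 against 3.39 to 6.49) and TNFAIP3 (10.8 to 11.5 against 7.29 to 20.1) lay inside the range of the others.

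**Figure D4:**
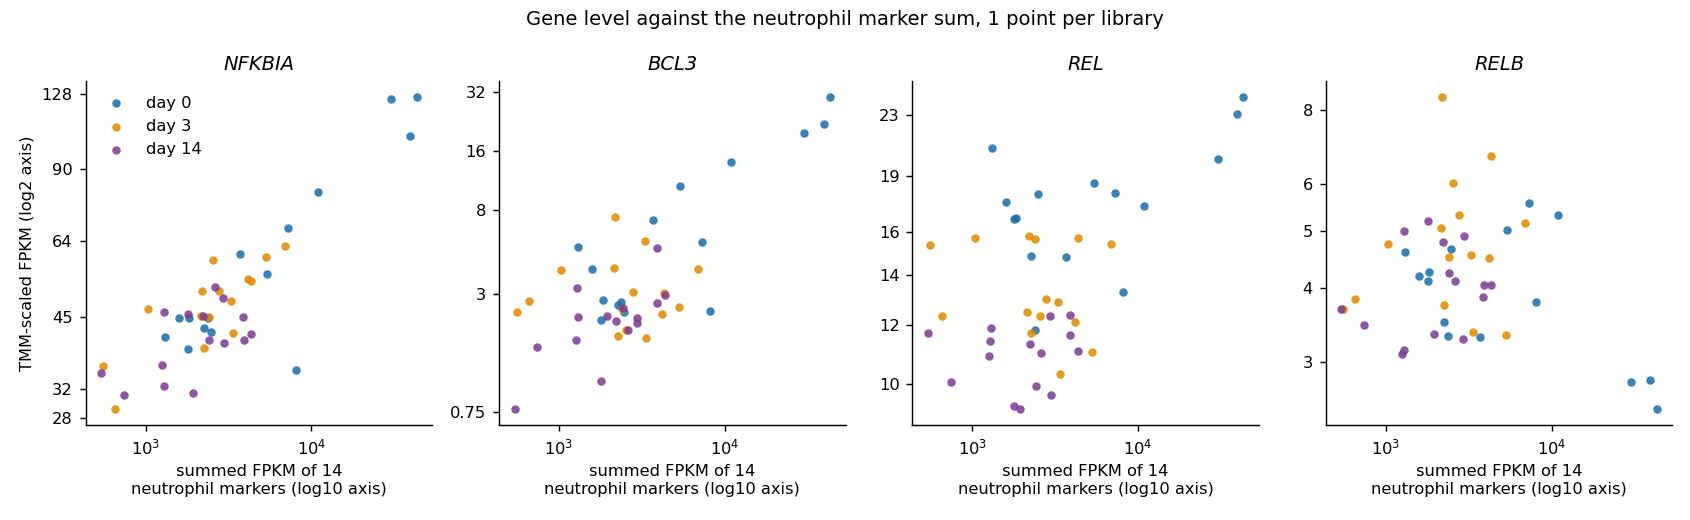
TMM-scaled FPKM of NFKBIA, BCL3, REL and RELB (log2 axis) against the summed FPKM of 14 neutrophil markers (log10 axis), with 1 point per library coloured by day. The 3 day 0 libraries on the far right, from 30188 FPKM of summed markers upward, have the highest NFKBIA and BCL3 values and the lowest RELB values, and 14 of 15 day 0 values of REL lie above every day 14 value.

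Without animals 7, 11 and 15, 5 of the 7 genes called on day 14 vs. day 0 were still called: REL (−0.59, adjusted p = 4.74e-06), RELA (−0.51, adjusted p = 0.00185), NFKB1 (−0.30, adjusted p = 0.00694), NFKB2 (−0.54, adjusted p = 0.00310) and BCL3. NFKBIE was called in addition, so that 6 of 10 genes were called, against 13.7% of all tested genes called down. On day 3 vs. day 0, where 6.71% of all tested genes were called without these animals (2.91% down), none of the 10 was called in limma. At an unadjusted p under 0.05 there were 2 of the 10, beside 4116 of the 18753 tested genes. In the comparison of day 14 with day 3, REL (−0.35), RELA (−0.51), NFKB1 (−0.38) and, in addition, NFKB2 (−0.46, adjusted p = 0.020) were called, that is 4 of 10 genes beside 20.6% of all tested genes (9.34% down).

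The genes whose levels were most like those of each of the 10 over the 45 libraries are given by Pearson's r of log2 values, as a description across libraries that include 3 per animal and share the 3 day 0 libraries that stood apart. For BCL3 these were MIDN (r = 0.973) and ZFP36 (r = 0.964), a destabiliser of cytokine messages, and for NFKBIA they were NCF4 (r = 0.928), a subunit of the phagocyte oxidase, and NDEL1 (r = 0.928). RELA was most like KDM2A (r = 0.933) and TTYH3 (r = 0.896), and NFKB2 most like TNRC18 (r = 0.925) and NOTCH1 (r = 0.915). REL was most like ARID5B (r = 0.901) and KAT6A (r = 0.900). For TNFAIP3 they were BTN3A2 (r = 0.820) and IRF1 (r = 0.804), and for NFKB1 IKZF1 (r = 0.806) and PIP4K2B (r = 0.801). RELB had TRAF3 (r = 0.757), which restrains the non-canonical branch, and CXXC5 (r = 0.727), NFKBIE had TMEM206 (r = 0.763) and TRIM27 (r = 0.752), and NFKBIB had HECTD3 (r = 0.675) and ATF6B (r = 0.667). Among the 10 genes themselves, RELA and NFKB2 were the pair with the highest r (0.868), and NFKBIB and NFKBIE the pair with the lowest (−0.16).

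Of the IKK kinases and their activators, 11 of 12 listed genes were measured and tested. On day 14 vs. day 0 3 of the 11 (27.3%) were called, beside 36.0% of all tested genes. By day 14, IKBKB, the catalytic IKK subunit of the canonical branch, fell from 20.4 ± 3.23 to 16.4 ± 1.84 FPKM (SD, n = 15; log2 fold change −0.31, SE 0.10, adjusted p = 0.0140, lower in 13 of 15 animals), a call lost with the RNA integrity covariate (adjusted p = 0.143). TANK, an adaptor of the IKK-related kinases, fell from 39.7 ± 13.6 to 30.7 ± 4.88 FPKM (−0.32, adjusted p = 0.0232, lower in 11), and its value without animals 7, 11 and 15 was −0.18 (adjusted p = 0.172), and with the RNA integrity covariate its adjusted p-value was 0.0549. TAB3, a partner of the kinase TAK1, rose from 5.60 ± 1.83 to 8.90 ± 6.37 FPKM (0.50, adjusted p = 0.0302, higher in 11), with 0.09 and no call without TMM. The other 8 did not pass, and the median was −0.20. On day 3 TANK fell (−0.42, adjusted p = 0.0116) and TAB1, another TAK1 partner, rose (0.32, adjusted p = 0.0343). Without the 3 animals TANK was at −0.28 (adjusted p = 0.0843) and TAB1 at 0.27 (adjusted p = 0.0811), and without TMM TAB1 was at 0.28 (adjusted p = 0.480). These 2 of 11 genes (18.2%) stand beside 12.5% of all tested genes. Without any one of animals 1, 2, 3, 7, 8, 10, 11 and 13, 1 was called, beside 7.67% to 11.7% of all tested genes. From day 3 to day 14, IKBKB (−0.36, adjusted p = 0.0181) and IKBKE (−0.34, adjusted p = 0.0436) fell, again 18.2% of the list and beside 13.6% of all tested genes. The count was 1 without any one of animals 2, 3, 9, 10, 12, 13 and 14, beside 6.65% to 13.6% of all tested genes. It was 0 without animal 8, beside 4.37% (at an unadjusted p under 0.05 in limma 3, and 4378 of all 18753). Without animal 6, 7 or 11 it was 4, beside 14.7% to 16.9%. The adjusted p-values of IKBKB and IKBKE with the RNA integrity covariate were 0.0530 and 0.0728. With the animal as a replicate block 4 genes were called (1 up and 3 down), beside 24.0% of all tested genes.

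Of the 24 adaptors and ubiquitin ligases upstream of IKK, 6 fell and none rose on day 14 vs. day 0, beside 17.3% down and 36.0% in either direction over all tested genes, with a median of −0.19. With the RNA integrity covariate 2 of them, MALT1 and IRAK4, were called, beside 20.1% of all tested genes. MALT1, the protease of the antigen receptor complex that activates IKK, fell from 62.6 ± 7.54 to 48.0 ± 6.83 FPKM (−0.39, SE 0.07, adjusted p = 7.39e-05, lower in 14 of 15 animals). IRAK4, the kinase that Toll-like receptors recruit through MYD88, fell from 19.8 ± 3.78 to 15.4 ± 2.20 FPKM (−0.35, SE 0.07, adjusted p = 3.00e-04, lower in 14). BCL10, the partner of MALT1, fell from 10.7 ± 2.61 to 8.67 ± 1.24 FPKM (−0.27, adjusted p = 0.0195, lower in 11), and its change was −0.13 (adjusted p = 0.259) without animals 7, 11 and 15, and its adjusted p-value 0.0903 with the RNA integrity covariate. On day 3, MALT1 (−0.26, adjusted p = 0.0162, lower in 14) and the ubiquitin ligase BIRC2 (−0.41, adjusted p = 0.0175, lower in 12) fell, that is 8.33% of the list beside 12.5% of all tested genes. The count was 1 without animal 2, beside 7.67% of all tested genes. It was 4 without animal 1 or 5, where 11.3% or more of all tested genes were called. MALT1 was not called without TMM (−0.30, adjusted p = 0.295) nor BIRC2 without the 3 animals (adjusted p = 0.0545), and 6 genes were called with the replicate block (2 up and 4 down), beside 19.6% of all tested genes. Between day 3 and day 14, limma called none of the 24, beside 13.6% of all tested genes. At an unadjusted p under 0.05 in limma there were 7 (1 up and 6 down), beside 5794 of the 18753 tested genes. The fit with the replicate block and the sign-flip test each called 5, all down, where all tested genes stood at 24.0% and 23.1%.

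Of the other inhibitors and deubiquitinases, 14 of 15 listed genes were tested, and on day 14 vs. day 0 4 fell and 2 rose, that is 42.9% beside 36.0% of all tested genes, with a median of −0.07. NFKBIZ and NFKBID encode nuclear relatives of BCL3. NFKBIZ fell from 23.4 ± 8.20 to 14.2 ± 2.17 FPKM (−0.66, SE 0.12, adjusted p = 2.96e-05, lower in 14 of 15 animals) and NFKBID from 3.82 ± 0.988 to 2.54 ± 0.430 FPKM (−0.55, adjusted p = 8.77e-04, lower in 14). N4BP1, a ribonuclease, fell from 34.9 ± 11.7 to 22.1 ± 4.47 FPKM (−0.61, adjusted p = 1.30e-04, lower in 14). TAX1BP1, an adaptor of A20 that is also a receptor for autophagy, rose from 42.9 ± 18.8 to 136 ± 60.1 FPKM (1.63, SE 0.25, adjusted p = 4.10e-06, higher in 15 of 15 animals), and it rose further between day 3 and day 14 (1.04, adjusted p = 0.00703). COMMD1 rose as well (0.51, adjusted p = 0.00115, higher in 13), with 0.09 and no call without TMM and an adjusted p-value of 0.0901 with the RNA integrity covariate. The red cell and reticulocyte markers, all 8 higher on day 14, moved in the same direction as TAX1BP1, and their part in its rise was not tested. On day 3 the list had 4 falls and no rises (28.6% beside 12.5% of all tested genes), led by NFKBIZ (−0.56, adjusted p = 0.00188, lower in 14) and N4BP1 (−0.43, adjusted p = 0.0156). The count was 2 without any one of animals 1, 4, 5, 7, 9, 10, 11 and 15, where 8.80% or more of all tested genes were called, and 2 without the filter (4.98%). Without animals 7, 11 and 15, NFKBIZ was still called (−0.34, adjusted p = 0.0406) and N4BP1 was not (−0.29, adjusted p = 0.117), and the other fall called then was that of CYLD (−0.32, adjusted p = 0.0277), a deubiquitinase named after its values were seen, which was not called over all 15 animals (adjusted p = 0.232).

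Of 38 listed genes that NF-kB is known to induce, 27 were tested, 4 were measured at levels under the limit for testing, and 7 are not analysed here (TNF, CXCL2, CCL2, CCL4, XIAP, LTA and LTB). On day 14 vs. day 0, 11 of the 27 fell and 5 rose, that is 59.3% of them beside 36.0% of all tested genes (17.3% down and 18.8% up), with a median of −0.48. With animals 7, 11 and 15 left out, 7 fell and 4 rose, beside 29.3% of all tested genes, and 5 of the 11 falls and 3 of the 5 rises were called in both. PTGS2, the inducible cyclooxygenase, fell from 52.1 ± 54.4 to 10.9 ± 5.86 FPKM (−1.73, SE 0.39, adjusted p = 5.32e-04, lower in 14 of 15 animals). CFLAR, an inhibitor of death receptor signalling, fell from 87.7 ± 40.6 to 50.5 ± 6.44 FPKM (−0.67, adjusted p = 5.82e-04, lower in 12), and IL1RN, the interleukin-1 receptor antagonist, from 13.2 ± 12.5 to 4.14 ± 2.86 FPKM (−1.36, adjusted p = 0.00143, lower in 13). The genes that rose included ICAM1, an adhesion molecule, from 3.25 ± 1.28 to 9.82 ± 5.17 FPKM (1.51, SE 0.19, adjusted p = 4.03e-07, higher in 15 of 15 animals), and BCL2L1, an inhibitor of apoptosis that is also abundant in maturing red cells, from 51.4 ± 45.9 to 364 ± 324 FPKM (2.92, SE 0.40, adjusted p = 1.13e-06, higher in 15). CCL5, a chemokine of T and NK cells, rose from 10.7 ± 8.51 to 26.4 ± 19.4 FPKM (1.34, adjusted p = 4.01e-04, higher in 14) while 4 of 6 NK cell markers were called up, and its adjusted p-value was 0.0838 with the RNA integrity covariate. With the RNA integrity covariate, 6 of the 27 were called on day 14 (2 up and 4 down), beside 20.1% of all tested genes.

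By day 3, 8 target genes had fallen and 2 had risen relative to day 0, that is 37.0% of the 27 beside 12.5% of all tested genes (6.35% down and 6.12% up). PTGS2 (−2.15, adjusted p = 5.88e-04, lower in 14 of 15 animals) and CXCL8 (−1.32, adjusted p = 0.00983, lower in 12) fell, and BCL2L1 (2.01, adjusted p = 0.00120, higher in 15) and ICAM1 (0.98, adjusted p = 0.00102, higher in 15) rose. When animals 7, 11 and 15 were left out, 3 were called, namely the same 2 rises and the fall of PTGS2 (−1.53, adjusted p = 0.0151), beside 6.71% of all tested genes. Leaving out animal 7 alone left 5 calls, and leaving out animal 2 or 11 left 6, while the share of all tested genes was 9.50%, 7.67% and 8.80%. Between days 3 and 14 limma called none of the 27, beside 13.6% of all tested genes. At an unadjusted p under 0.05 in limma there were 4, beside 5794 of the 18753 tested genes. The replicate block called 4 (3 up and 1 down) and the sign-flip test 3, where the shares of all tested genes were 24.0% and 23.1%.

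**Figure D5:**
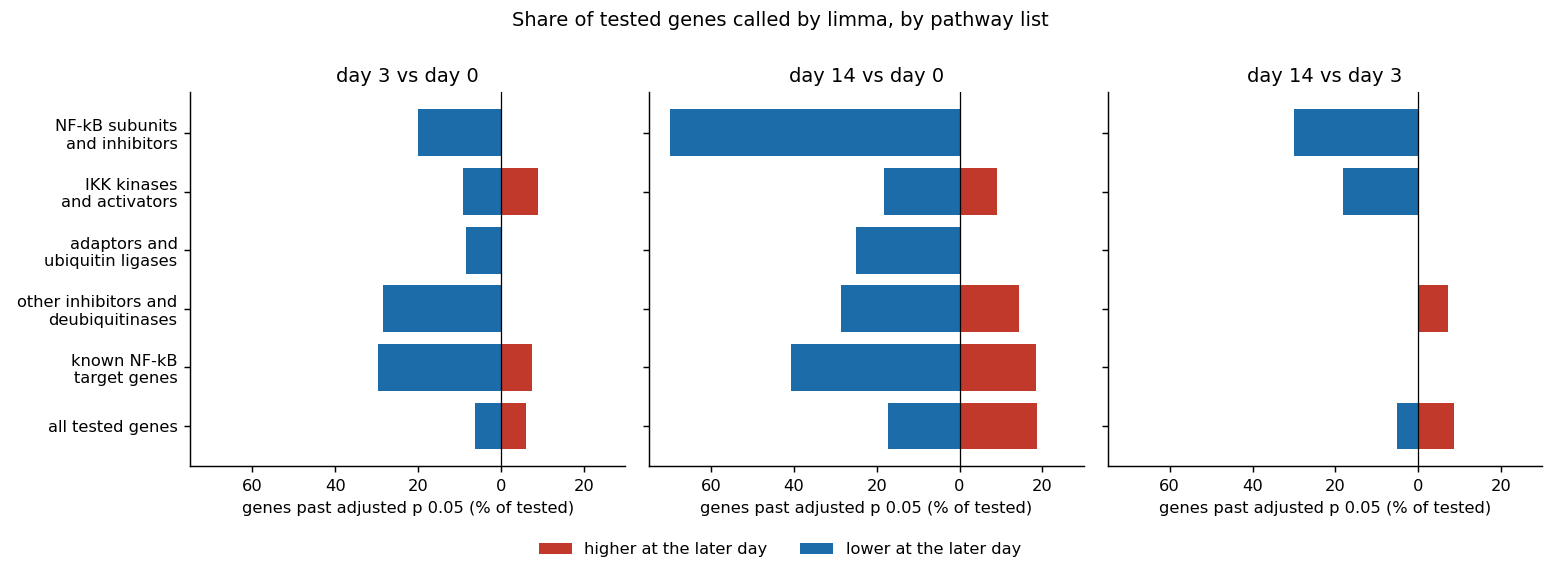
Share of tested genes, in percent, called by limma at an adjusted p-value under 0.05 as lower (blue, to the left) or higher (red, to the right) at the later day, for the 10 genes described, the 4 pathway lists and all tested genes in each comparison. On day 14 vs. day 0, 7 of the 10 genes and 11 of 27 target genes are lower, beside 17.3% of all tested genes.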

How the data were processed

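Whole-blood RNA of 15 animals on 3 days was analysed, 1 library per animal and day. Per the labels, reads were converted with bcl2fastq 2.17, aligned with STAR and counted with HTSeq on stranded libraries depleted of ribosomal and globin RNA, and the authors deposited FPKM per gene and sample, not scaled between libraries. All 33994 rows of each table were whole multiples of 1 fragment (tolerance 0.05 fragments), which gave the fragments per gene and library and the CPM (fragments scaled to the library total) used for filtering. FPKM were divided by TMM factors computed here (trims of 30% and 5%), 0.1 was added, and limma 3.58.1 (R 4.3.3) was fitted to log2 values of all 45 libraries with 1 mean per day and an intensity trend. Genes above 0.5 CPM in at least 3 libraries were tested (18753), two-sided, with Benjamini-Hochberg adjustment over all of them and a threshold of 0.05. The limit corresponds to between 6.61 and 15.7 fragments, depending on the library.

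The 10 genes and the lists were chosen with earlier results of these data known. All 10 are named in each comparison, and from each pathway list the called genes with the lowest adjusted p-values: up to 3 in each direction on day 14 vs. day 0 and up to 2 in the other comparisons. For each of the 10, the 2 genes most like it are named, leaving out symbols that start with LOC. Same-numbered libraries come from the same animal by the labels. Their deviations from the day means correlated with a mean r of 0.328 across genes (different animals −0.04), and 41 of 45 pairs exceeded 0.1. Alternatives are other scalings, pseudocounts and filters, no intensity trend, the animal as a replicate block, the study's RNA integrity numbers as a covariate, an exact sign-flip test within animals, and leaving out each animal in turn; leaving out animals 7, 11 and 15, or their day 0 libraries, was chosen after seeing the data. The scripts were tested on simulated data. Day 14 follows the sample labels (another field of the record says day 15). The labels name no sequencing batch. Chromosome positions and sequences are not used here.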

Additional observations from a re-analysis of the deposited data

How the results depend on the processing

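Median-of-ratios scaling, a pseudocount of 1 or 0.01, the strict filter, no intensity trend and the replicate block changed neither the direction nor the call of any of the 30 log2 fold changes (10 genes in 3 comparisons). With the replicate block, the paired fit, the calls of the 10 genes stayed at 2, 7 and 3. The shares of all tested genes called rose in that fit, from 12.5%, 36.0% and 13.6% to 19.6%, 44.3% and 24.0%. The sign-flip test within animals, paired by construction, changed 3 calls of the 10 genes (RELB gained and BCL3 lost on day 3, and NFKBIA gained on day 14 vs. day 3). The causes of the changes below were not tested.

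Calls of the 10 genes on day 3 vs. day 0 went from 2 to 1 without the filter, with the RNA integrity number (RIN) and without the day 0 libraries of animals 7, 11 and 15, and to 0 without these animals. Over all genes tested, the shares called on day 3 were 4.98%, 7.81%, 8.59% and 6.71% in these 4 settings. On day 14 vs. day 3 the calls went from 3 to 9 without TMM (38.6% of all tested genes) and to 1 with RIN (6.24%). Leaving out 1 animal gave 1 to 3, 7 to 8 and 1 to 4 calls in the order of the comparisons day 3 vs. day 0, day 14 vs. day 0 and day 14 vs. day 3, with 1 call in the last without animal 9. Signs turned for uncalled values near 0. For RELB on day 14 vs. day 0 the value was −0.38 without TMM, −0.013 with RIN, −0.11 without animals 7, 11 and 15, −0.10 without their day 0 libraries, and −0.011 to 0.092 when each animal was left out. For NFKBIB it was −0.26 without TMM. On day 3, RELA was 0.0035 without the 3 animals, and NFKB1 was 0.0092 with RIN, 6.8e-04 with RIN and block, 0.084 without the 3 animals, 0.039 without their day 0 libraries, and −0.036 to 0.029 when each animal was left out.

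For the pathway lists the order is IKK kinases, adaptors, other inhibitors and targets. On day 3 vs. day 0, day 14 vs. day 0 and day 14 vs. day 3, all tested genes were called at 8.70%, 49.4% and 38.6% without TMM, 19.6%, 44.3% and 24.0% with the replicate block, 7.81%, 20.1% and 6.24% with RIN, and 6.71%, 29.3% and 20.6% without animals 7, 11 and 15. Without TMM, day 14 vs. day 0 gave 9, 19 and 11 calls for the first 3 and day 14 vs. day 3 gave 6, 20, 8 and 8, and the adaptors had 1 on day 3. Median-of-ratios scaling gave 4 adaptors on day 3 (all tested genes 12.5%) and the strict filter 5 (16.7%). The strict filter or a pseudocount of 1 gave 1 target on day 14 vs. day 3 (all tested genes 18.4% and 13.8%). No filter gave 1 IKK gene and 2 other inhibitors on day 3 (all tested genes 4.98%), and 1 IKK gene on day 14 vs. day 3 (4.56%). The replicate block gave 6 adaptors on day 3, and 4, 5, 2 and 4 calls on day 14 vs. day 3. The sign-flip test gave 4 adaptors on day 3 (all tested genes 17.6%), and 4 IKK genes, 5 adaptors and 3 targets on day 14 vs. day 3 (23.1%). RIN gave 6 targets on day 3, 1 IKK gene, 2 adaptors and 6 targets on day 14 vs. day 0, and 0 IKK genes on day 14 vs. day 3. At an unadjusted p under 0.05 in limma the last was 6, beside 4763 of all 18753 tested genes. RIN with the block gave 5 adaptors on day 3 (all tested genes 15.4%). On day 14 vs. day 3 it gave 0 IKK genes (5 unadjusted, beside 5080 of all 18753) and 1 target (all tested genes 10.1%). Without animals 7, 11 and 15 there were 0 IKK genes (4 unadjusted, beside 4116 of all 18753), 2 other inhibitors and 3 targets on day 3, and 6, 4, 2 and 2 calls on day 14 vs. day 3. Without their day 0 libraries there were 0 IKK genes (3 unadjusted, beside 4373 of all 18753), 2 other inhibitors and 3 targets on day 3 (all tested genes 8.59%). On day 14 vs. day 3 there were then 4 IKK genes, 1 adaptor and 2 targets (17.3%). Leaving out 1 animal gave, on day 3, 1 to 2, 1 to 4, 2 to 4 and 5 to 11 calls, on day 14 vs. day 0 2 to 3, 4 to 7, 6 to 6 and 12 to 17, and on day 14 vs. day 3 0 to 4, 0 to 2, 1 to 2 and 0 to 2.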

Other observations

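Several limits apply to the values above. Place, sedation and time cannot be told apart vs. day 0. RNA integrity tended to be higher on day 14, so a fit with that covariate cannot fully separate it from the day. Whole blood mixes cell types whose markers moved, and no cell counts were used here. FPKM of 1 gene depend on all other transcripts of the library, and the day 14 directions of RELB and NFKBIB depended on the scaling. Transcripts of these genes do not measure their proteins or the location of the dimers. The spread between libraries combines animals and technical error, since each animal gave 1 library per day. The lowest BCL3 values rest on few fragments, with a minimum of 36.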
